A study of Mus musculus with 30 samples.

Results

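The genes described here are 10 transcription factor genes of naive pluripotency, taken by name from the 55401 genes of the nuclear RNA-seq count tables: Pou5f1, Sox2, Nanog, Klf2, Klf4, Esrrb, Zfp42, Tfcp2l1, Tbx3 and Prdm14. All 10 had counts in every library and passed the filter on low counts in the exon columns of all 4 tables. Nuclear RNA was sequenced in 30 libraries from 15 conditions, with 2 biological replicates each. CGR8, the parental mouse embryonic stem (ES) cell line without a degron, was compared with and without 4 h of indole-3-acetic acid (IAA), the auxin that triggers the degron. SYAT cells are CGR8 cells in which both alleles of Srcap carry YPet-AID and which express the auxin receptor OsTir1, so that IAA removes SRCAP, the ATPase of the complex that places the histone variant H2A.Z in nucleosomes. They were collected in the control condition and after 2, 4, 6 or 8 h of IAA. SYAT cells were also sorted in early G1 (EG1) or late G1 (LG1), by a fluorescent mitotic degron and DNA content, with and without 1 h of IAA. Finally, SYAT cells carrying wild-type SRCAP (wtSRCAP) or a catalytically dead mutant (cdSRCAP), each fused to mCherry and induced for 24 h with 1 µg/mL doxycycline, were collected with and without 4 h of IAA and sorted on mCherry. IAA was given at 500 µM throughout, in Serum LIF medium. SYAT-derived control cells were kept in auxinole, an inhibitor of the receptor, and the labels give none for CGR8. A comparison of IAA with control in SYAT-derived cells thus sets IAA against auxinole, and both changes cannot be told apart. SYAT cells come from 1 clone, as do the wtSRCAP and the cdSRCAP cells, so that construct and clone cannot be told apart either.

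Naive pluripotency is the state of the preimplantation epiblast, which mouse ES cells hold in culture through a network of transcription factors that bind each other's regulatory regions. OCT4 (encoded by Pou5f1) and SOX2 bind DNA together and are needed in naive and primed cells alike. NANOG, the KLF factors, ESRRB, TFCP2L1, TBX3 and PRDM14 hold the naive state, several of them downstream of leukemia inhibitory factor (LIF) and STAT3. In serum and LIF, ES cells are heterogeneous for Nanog, Zfp42, Esrrb, Klf4, Tbx3 and Prdm14, whereas Pou5f1 is more even from cell to cell.

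On GRCm38 (mm10), Pou5f1 lies on chromosome 17 from 35506018 to 35510772, Sox2 on chromosome 3 from 34650405 to 34652461, and Nanog on chromosome 6 from 122707489 to 122714633, all on the plus strand. Klf2 lies on chromosome 8 from 72319033 to 72321656 on the plus strand, and Klf4 on chromosome 4 from 55527143 to 55532466 on the minus strand. Esrrb lies on chromosome 12 from 86361117 to 86521628 on the plus strand, Zfp42 on chromosome 8 from 43295063 to 43306980 on the minus strand, and Tfcp2l1 on chromosome 1 from 118627945 to 118685168 on the plus strand. Tbx3 lies on chromosome 5 from 119670669 to 119684724 on the plus strand, and Prdm14 on chromosome 1 from 13113457 to 13127163 on the minus strand. Sox2 has a single exon and sits inside Sox2ot on the same strand. Pou5f1 and Tbx3 overlap an antisense gene (Gm19553 and Tbx3os1), Tfcp2l1 overlaps 3 small genes or pseudogenes, and processed pseudogenes are annotated for Nanog (Nanog-ps1 and Nanog-ps2) and Zfp42 (Zfp42-ps1). How strand and such copies were treated in counting is not given in the sources used here, so the counts of these genes are uncertain to that extent.

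The 3 promoters below, of Nanog, Zfp42 and Esrrb, are shown with the letters that known regulators of these genes read. They are the 250 bases before the RefSeq start on GRCm38.p6, written 5′ to 3′ on the strand of the gene. Capitals mark matches on either strand to 7 short motifs. The octamer read by OCT4 was searched as ATGCAAAT and its core as TGCAT. For SOX factors the letters were ACAATG, for ESRRB they were AAGGTCA, and for STAT factors they were TTCNNNGAA. For KLF factors the letters were CACCC, and for SP and KLF factors they were GGGCGG.
Nanog, chr6:122707239-122707488, plus strand: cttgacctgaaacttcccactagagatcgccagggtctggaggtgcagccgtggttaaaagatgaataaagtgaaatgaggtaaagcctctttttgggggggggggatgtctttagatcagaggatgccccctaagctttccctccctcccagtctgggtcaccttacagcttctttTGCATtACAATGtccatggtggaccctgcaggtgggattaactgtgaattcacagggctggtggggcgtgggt
Zfp42, chr8:43307010-43307259, minus strand: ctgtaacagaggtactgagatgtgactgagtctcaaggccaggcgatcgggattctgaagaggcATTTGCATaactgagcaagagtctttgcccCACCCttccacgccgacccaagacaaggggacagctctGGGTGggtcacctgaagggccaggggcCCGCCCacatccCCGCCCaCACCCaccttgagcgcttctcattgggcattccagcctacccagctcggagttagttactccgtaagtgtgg
Esrrb, chr12:86360867-86361116, plus strand: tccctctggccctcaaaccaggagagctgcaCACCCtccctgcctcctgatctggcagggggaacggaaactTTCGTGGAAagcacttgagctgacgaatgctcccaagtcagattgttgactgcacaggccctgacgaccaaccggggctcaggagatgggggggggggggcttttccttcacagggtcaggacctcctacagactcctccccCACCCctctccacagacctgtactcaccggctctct
In Nanog, the octamer core at position -73 and the SOX letters at position -67 from the start are 1 base apart. In Zfp42, the whole octamer is read on the opposite strand from position -186, and it overlaps the octamer core at -183. In Esrrb, the STAT letters stand at position -178. Of the 10 genes, 8 had a promoter in the table, with Tbx3 and Prdm14 without an entry. Among these 8, the octamer was found in 1, the octamer core in 3, the SOX letters in 1, the STAT letters in 1, CACCC in 4, GGGCGG in 5 and AAGGTCA in 0. Among those not printed, Klf4 had 4 matches to GGGCGG and 0 to the other motifs, and Tfcp2l1 had 0 to each. Of 32536 promoters of the same length, 1.62% held the octamer, 28.7% its core, 10.5% the SOX letters, 7.04% the STAT letters, 52.1% CACCC, 33.0% GGGCGG and 4.09% AAGGTCA. A match describes these letters and is no evidence of binding.

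The exon total of a library was 45617992 to 60214521 counts for CGR8, 17540823 to 22873893 for unsorted SYAT, 19740778 to 26672402 for sorted SYAT, and 12236493 to 26369773 for wtSRCAP and cdSRCAP cells. Levels below are given in CPM, exon counts scaled to a common library total with factors from the TMM method, and each table was scaled on its own. The SYAT library 2 at 6 h stood apart from the other time course libraries, with the lowest TMM factor (0.854, against 0.966 to 1.08 in the other 9), and the counts over the members and the printed fold changes at 6 h are given with and without it. IAA acts on the SRCAP protein, so the Srcap transcript is no check of its removal. It stood at 39.9 to 45.8 CPM in SYAT controls and 44.9 to 60.2 CPM after IAA. The label of naive ES cells was checked against markers of other states. Formative and primed markers (7 genes, among them Otx2 and Dnmt3b) were detected throughout, with summed levels of 829 to 859 CPM in CGR8 controls and 1887 to 2124 CPM in SYAT controls. Primitive endoderm markers (7 genes) summed to 13.2 to 17.1 CPM in these controls, and 2-cell-like markers (6 genes) to 0.304 to 1.57 CPM. Neural markers (4 genes) summed to 76.5 to 79.4 CPM in CGR8 controls, 131 to 220 CPM in SYAT controls and 285 to 349 CPM in sorted controls. In CGR8 and SYAT controls, mesendoderm markers (4 genes) summed to 4.09 to 12.5 CPM. Trophectoderm markers (4 genes) summed to 3.39 to 7.90 CPM there and fibroblast markers (6 genes) to 12.5 to 26.6 CPM.

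The members spanned a wide range of levels per length of merged exons. In CGR8 controls, Pou5f1 led with 365 ± 64.2 CPM per kilobase (SD, n = 2), followed by Zfp42, which encodes REX1, with 348 ± 13.4 CPM per kilobase. The libraries of these 2 genes overlapped. Below them came Sox2 (143 ± 0.433 CPM per kilobase), Klf2 (124 ± 10.6), Nanog (109 ± 9.20), Esrrb (55.8 ± 2.71), Klf4 (51.5 ± 1.32) and Tfcp2l1 (21.3 ± 0.255), each apart from its neighbour. Prdm14 with 4.47 ± 0.283 and Tbx3 with 3.30 ± 0.362 CPM per kilobase came last. In SYAT controls, Pou5f1 led again with 268 ± 13.5 CPM per kilobase, but Sox2 came next with 161 ± 23.9 and Zfp42 after it with 108 ± 46.5. Klf2 (64.9 ± 14.1 CPM per kilobase) overlapped with Zfp42. Nanog stood at 25.8 ± 9.67, Esrrb at 14.4 ± 4.72, Klf4 at 10.2 ± 5.07, Tfcp2l1 at 7.16 ± 1.61, Tbx3 at 2.73 ± 1.00 and Prdm14 at 1.29 ± 0.368 CPM per kilobase, with overlap from Esrrb to Klf4 and from Klf4 to Tfcp2l1. Pou5f1 was first and Tbx3 and Prdm14 held the last places in all 6 control conditions, as the orders in EG1, LG1, wtSRCAP and cdSRCAP controls showed.

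Exon levels of every member but Sox2 and Tbx3 were lower in both SYAT controls than in both CGR8 controls, a difference between separately scaled tables that was not tested. Nanog had 259.9 and 231 CPM in CGR8 controls and 42.5 and 73.2 CPM in SYAT controls. Sox2, in contrast, had 294 and 295 CPM in CGR8 controls and 297 and 367 CPM in SYAT controls. Tbx3 had 20.1 and 23.5 CPM in CGR8 controls and 13.4 and 22.8 CPM in SYAT controls, so that its libraries overlapped. In such bulk samples, fewer cells with a transcript and less of it per cell cannot be told apart.

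**Figure D1:**
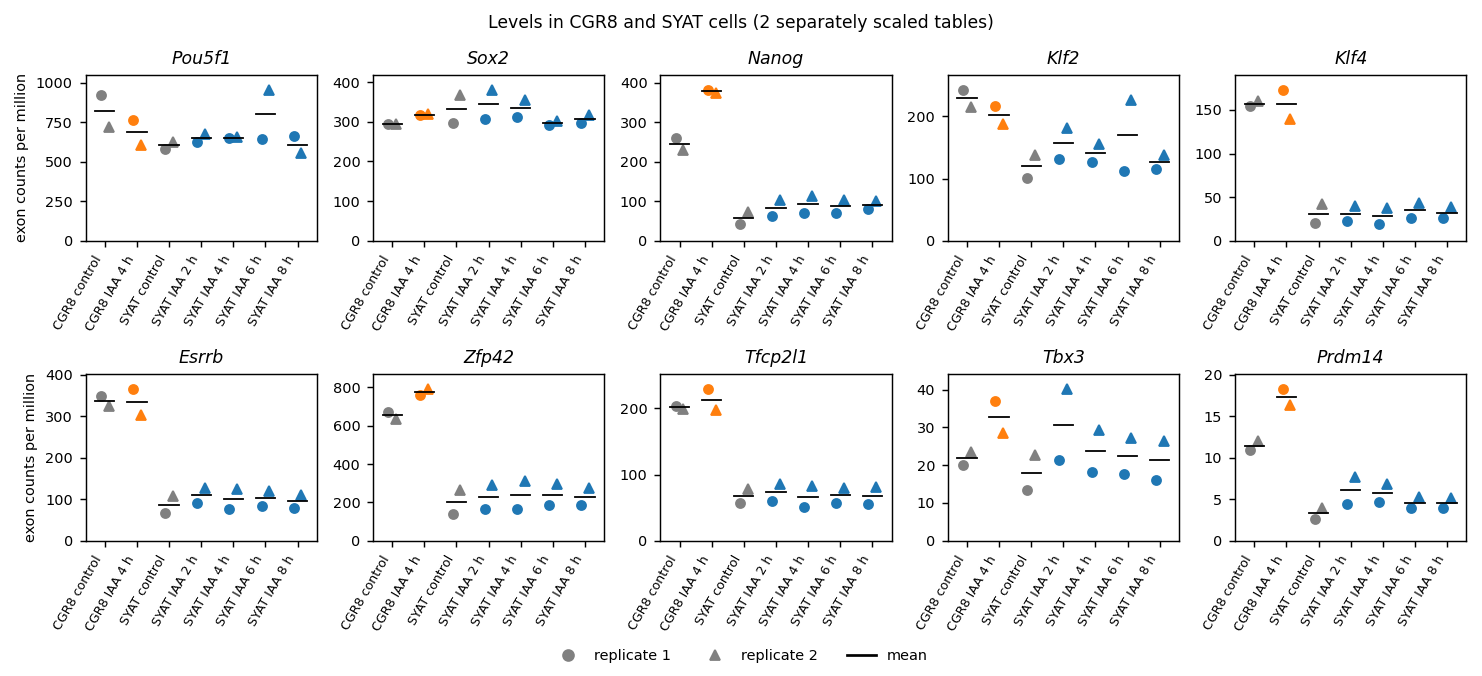
Exon levels in CPM (vertical axis, from 0) of the 10 genes in CGR8 and SYAT cells, by condition (horizontal axis). Circles are replicate 1, triangles replicate 2 and bars the mean of both; CGR8 and SYAT cells come from separately scaled tables. Nanog, Tbx3 and Prdm14 stood higher after IAA in CGR8 cells (orange), and SYAT triangles stood above circles for most genes.

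CGR8 cells have no degron, so their comparison gives what IAA does without loss of SRCAP. Nanog, the homeodomain factor that stabilises self-renewal, had 259.9 and 231 CPM in the controls and 383 and 375 CPM after 4 h of IAA. Both treated libraries stood above both controls. The log2 fold change was 0.63 (standard error 0.128, a 1.54-fold difference), with an unadjusted p of 0.000986 and an adjusted p of 0.54 from edgeR. With DESeq2 the adjusted p was 0.00413, and Nanog passed the threshold. Its intron column gave a log2 fold change of 0.23 (standard error 0.25, edgeR).

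Tbx3, a T-box repressor downstream of LIF signalling, had 20.1 and 23.5 CPM in CGR8 controls and 37.1 and 28.4 CPM after IAA. Prdm14, which represses FGF signalling and DNA methylation genes, had 10.9 and 12.0 CPM in the controls and 18.2 and 16.3 CPM after IAA. The groups did not overlap for either gene. The log2 fold changes were 0.58 (standard error 0.183, unadjusted p = 0.0116 from edgeR) for Tbx3 and 0.59 (standard error 0.175, unadjusted p = 0.00879 from edgeR) for Prdm14, both with an adjusted p of 0.54. In the intron column they were 0.62 and 0.52.

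The other 7 genes had log2 fold changes between -0.26 and 0.24 in CGR8 cells. Zfp42 had 672 and 637 CPM in the controls and 760.5 and 789.7 CPM after IAA, without overlap. Pou5f1, with 923 and 719 CPM in the controls and 762 and 609.5 CPM after IAA, had the lowest value, -0.26, and its groups overlapped. Sox2 had 294 and 295 CPM against 317 and 319 CPM, also without overlap.

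The remaining genes overlapped between both conditions. Klf2 had 243 and 215 CPM in the controls and 216 and 188 CPM after IAA, Klf4 154 and 159.9 CPM against 173 and 139.9 CPM, Esrrb 349 and 326 CPM against 365 and 303 CPM, and Tfcp2l1 203 and 199.8 CPM against 229 and 198 CPM. By edgeR, 0 of the 10 genes were called, that is, changed by more than 0.5 on the log2 scale with adjusted p under 0.05, as did 0.00988% of the 20250 genes tested. DESeq2 called 1 of the 10, Nanog, and 140 of the 20250 genes. With a replicate term, edgeR and DESeq2 each called Nanog alone, beside 500 and 411 of all genes. Without that term, edgeR gave an unadjusted p under 0.05 for 3 of the 10, all higher after IAA, against 9.16% of all genes. With it, edgeR gave one for 5 of the 10, beside 3338 of all genes. The median log2 fold change was 0.10 over the 10 genes and -0.00 over all genes. In the same comparison, 3 of 7 formative and primed markers were higher and 1 was lower at an unadjusted p under 0.05 (median -0.08), and of 4 neural markers 1 was higher and 1 lower (median -0.37). Their part in the values of the members was not tested.

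In SYAT cells the question was whether the naive factors change as SRCAP is lost over 2 to 8 h. All 4 time points share the 2 control libraries. Without a replicate term, none of the 10 genes passed the thresholds by edgeR at any time. DESeq2 without it called 0 of the 10 at each time, with 9, 185, 639 and 463 calls over all genes at 2, 4, 6 and 8 h. With a replicate term, edgeR called 0, 0, 1 and 1 of the 10 at these times, beside 0, 76, 823 and 634 of all genes. DESeq2 with it called 1 at each time, beside 42, 349, 1212 and 753. Counts below are from edgeR without that term. At 2 h, 0 of 10 were called against 0.0% of 19205 genes, and 1 of 10 had an unadjusted p under 0.05 against 3.92%. At 4 h, 0 were called against 0.0%, and 1 had an unadjusted p under 0.05 against 9.09%. At 6 h, 0 were called against 0.0677%, and 1 had an unadjusted p under 0.05 against 16.1%. Without the 6 h library 2, 3 of 10 values were above 0, and the median was -0.07 beside 0.02 over all genes. That fit sets the 6 h library 1 against both controls. In that library, CPM was 0.98 (Sox2) to 1.67 (Nanog) times that of control library 1, and lower for Sox2 alone. At 8 h, 0 were called against 0.00521%, and 0 had an unadjusted p under 0.05 against 13.6%. The median log2 fold changes of the 10 genes were 0.26, 0.23, 0.28 and 0.11 at 2, 4, 6 and 8 h, and those of all genes were 0.00, 0.02, 0.01 and 0.03. Of the 10 genes, 10, 8, 9 and 9 had values above 0, as did 50.58%, 52.37%, 50.91% and 53.2% of all genes. At these times the medians of formative and primed markers were 0.25, 0.19, 0.18 and 0.03. Those of primitive endoderm markers were 0.28, 0.30, 0.27 and 0.39, of mesendoderm 0.50, 0.84, 0.38 and 0.57, and of neural 0.09, 0.28, 0.40 and 0.33. Trophectoderm medians lay between -0.06 and 0.36 and fibroblast medians between -0.08 and 0.58. The part of these markers in the values of the members was not tested.

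Nanog had 42.5 and 73.2 CPM in SYAT controls, 63.1 and 104 CPM at 2 h, 71.6 and 114 CPM at 4 h, 71.0 and 104 CPM at 6 h, and 79.5 and 99.8 CPM at 8 h. All 8 treated libraries, which share these 2 controls, stood above the control library of their own number, and 5 of 8 stood above both controls. Control and treated groups overlapped at 2, 4 and 6 h and not at 8 h.

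The log2 fold changes of Nanog were 0.53 at 2 h, 0.68 at 4 h, 0.60 at 6 h and 0.63 at 8 h, each with a standard error of 0.333. Their unadjusted p-values from edgeR were 0.144, 0.0668, 0.104 and 0.087, and their adjusted p-values 1.00, 0.599, 0.402 and 0.443. The value at 4 h in SYAT cells (0.68) stands beside 0.63 in CGR8 cells without a degron at the same time, in separate tables; the difference was not tested. When 1 library was left out, the values of Nanog ranged from 0.12 (without the 2 h library 2) to 1.13 (at 4 h, without control library 2). At 6 h it was 0.30 without the 6 h library 2.

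Zfp42, a zinc finger gene widely used as a marker of naive cells, had 140.4 and 264 CPM in SYAT controls, 165 and 291 CPM at 2 h, 168 and 309.8 CPM at 4 h, 185 and 295 CPM at 6 h, and 184 and 275 CPM at 8 h. The 2 controls differed by more than any treated library did from the control of its own number. Log2 fold changes were 0.17, 0.24, 0.25 and 0.18 at 2, 4, 6 and 8 h (standard error 0.402 each, adjusted p from edgeR 1.00, 0.922, 0.80 and 0.89). They turned negative when control library 1 was left out, at -0.21, -0.15, -0.13 and -0.21, which leaves only the higher control. The value at 6 h was -0.13 without the 6 h library 2. All 8 treated libraries stood above the control of their own number, and 4 stood above both controls. The ratios were 1.17 to 1.32 in libraries 1 and 1.04 to 1.17 in libraries 2.

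Pou5f1 had 582 and 625 CPM in SYAT controls, 625 and 674 CPM at 2 h, 651 and 655 CPM at 4 h, 644 and 957 CPM at 6 h, and 662 and 553 CPM at 8 h. Both treated libraries stood above both controls at 2, 4 and 6 h, and the 6 h library 2 was the highest of the 10. The log2 fold change at 6 h was 0.41 (standard error 0.179, unadjusted p = 0.0454 and adjusted p = 0.30 from edgeR), and 0.10 without that library. The intron column at 6 h gave 0.61 with it and -0.05 without it. Sox2, the partner of OCT4, had 297 and 367 CPM in the controls and between 292 and 381 CPM in the 8 treated libraries, of which 1 stood above both controls.

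Prdm14 had 2.63 and 3.97 CPM in SYAT controls, from 52 and 96 counts, the lowest of the 10 genes. It had 4.47 and 7.64 CPM at 2 h, 4.63 and 6.83 CPM at 4 h, 3.95 and 5.22 CPM at 6 h, and 3.92 and 5.18 CPM at 8 h. Treated and control groups did not overlap at 2 and 4 h. All 8 treated libraries exceeded the control of their number, and 6 exceeded both controls. The log2 fold change was 0.88 at 2 h (standard error 0.356, unadjusted p = 0.0335 and adjusted p = 1.00 from edgeR) and 0.80 at 4 h (standard error 0.356, unadjusted p = 0.0493 and adjusted p = 0.548 from edgeR). In the intron column the values were 1.02 and 0.89. Without the treated library 2, the exon values were 0.43 at 2 h and 0.48 at 4 h.

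Tbx3 had 13.4 and 22.8 CPM in SYAT controls, 21.4 and 40.1 CPM at 2 h, 18.1 and 29.4 CPM at 4 h, 17.6 and 27.1 CPM at 6 h, and 16.1 and 26.5 CPM at 8 h. All 8 treated libraries exceeded the control of their number, and 4 exceeded both controls. Klf2, the KLF factor tied to the naive ground state, had 101 and 138 CPM in the controls, 132 and 182 CPM at 2 h, 127 and 155 CPM at 4 h, 113 and 226 CPM at 6 h, and 116 and 138 CPM at 8 h. Again the 6 h library 2 was the highest of the 10.

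Klf4, a reprogramming factor downstream of STAT3, had 20.1 and 42.0 CPM in SYAT controls and between 19.0 and 43.9 CPM in the treated libraries. Esrrb, an orphan nuclear receptor and target of NANOG, had 66.7 and 107 CPM in the controls, 91.9 and 128 CPM at 2 h, 76.5 and 125 CPM at 4 h, 83.7 and 120.5 CPM at 6 h, and 79.6 and 111 CPM at 8 h. Tfcp2l1, a CP2 family factor downstream of LIF, had 56.8 and 78.3 CPM in the controls and between 50.4 and 86.4 CPM after IAA. All 8 treated libraries of Esrrb and Klf2 stood above the control of their number, as did 6 of 8 for Tfcp2l1, 4 of 8 for Klf4 and 3 of 8 for Sox2.

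The numbered libraries differed from each other for most members. For 9 of 10 genes, library 2 stood above library 1 in all 5 conditions of the SYAT time course. Pou5f1 was the exception, with library 2 higher in 4 of 5. The ratio of library 2 to library 1 was 1.49 to 1.88 for Zfp42, 1.47 to 2.09 for Klf4, 1.39 to 1.64 for Esrrb, 1.26 to 1.72 for Nanog and 1.04 to 1.24 for Sox2. Formative and primed markers stood at 1887 and 2124 CPM in the 2 controls, and their part in this difference was not tested.

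Likeness was taken as Pearson's r of log2 CPM over the 10 SYAT libraries, which share controls, depth and library number, and is given without a test. Zfp42 and Esrrb were most alike each other (r = 0.957). Klf4 was most alike Zfp42 (0.954), Tfcp2l1 and Tbx3 were most alike Esrrb (0.938 and 0.951), Prdm14 was most alike Tbx3 (0.926) and Nanog was most alike Zfp42 (0.893). Pou5f1 was the least alike member for every other gene but Klf2, and its r with Sox2 was -0.07. Among all 19205 genes, the most alike was Dnajb6 for Nanog (0.980), Dusp27 for Zfp42 (0.993), Fbxo15 for Esrrb (0.976), Cdca2 for Klf4 (0.970), Pdgfa for Klf2 (0.984), Lrmp for Tfcp2l1 (0.974), Mcf2 for Tbx3 (0.961), Hmox1 for Prdm14 (0.970), Snrpd2 for Pou5f1 (0.979) and Atxn3 for Sox2 (0.960).

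**Figure D2:**
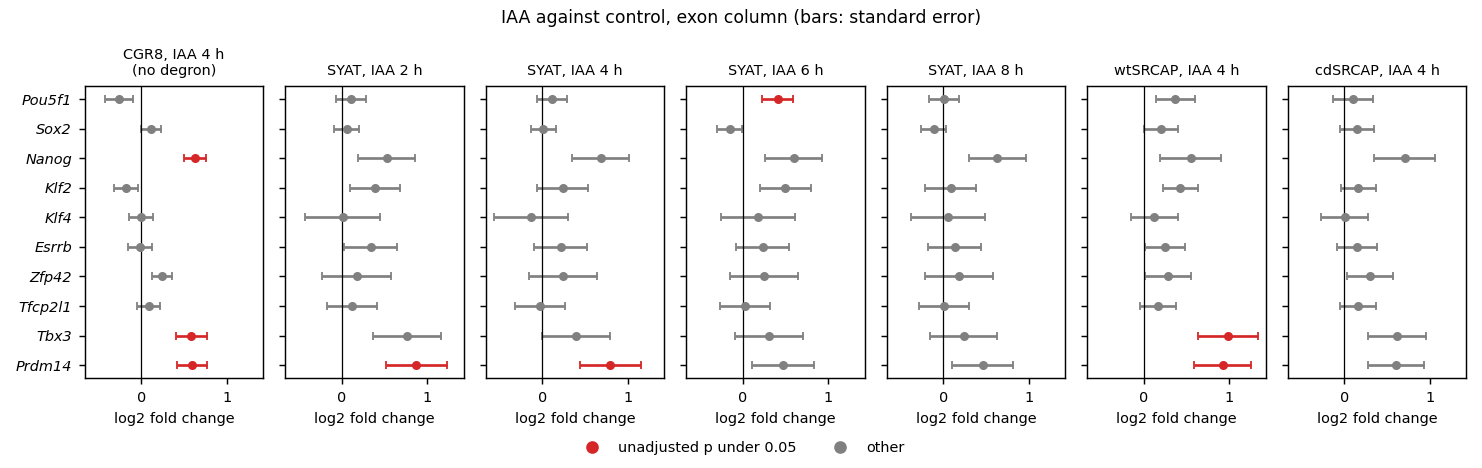
Log2 fold changes of IAA against control in the exon column (horizontal axis) for the 10 genes (vertical axis), in CGR8, SYAT, wtSRCAP and cdSRCAP cells. Points are edgeR estimates, bars their standard errors, and red points have an unadjusted p under 0.05; Nanog lay between 0.53 and 0.71 in all 7 comparisons.

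Intron columns can show ongoing transcription, but in unsorted SYAT and in EG1 cells they held exonic reads as well. Klf2 had 2005 exon and 2038 intron counts in the SYAT control library 1, and 5470 exon and 5493 intron counts in the EG1 control library 1, against 4751 exon and 17 intron counts in the LG1 control library 1. Sox2, with no intron, had 0 intron counts in every library. Pou5f1, with 6 merged exons, also had 0 in every CGR8, LG1, wtSRCAP and cdSRCAP library. In SYAT cells the intron column therefore gave values near those of the exon column for Nanog and Zfp42. The log2 fold changes were 0.53, 0.65, 0.58 and 0.56 for Nanog and 0.20, 0.26, 0.25 and 0.25 for Zfp42 at 2, 4, 6 and 8 h. Pou5f1 differed, with intron counts at 40.0% of exon counts in the 6 h library 1 and 55.5% in the 6 h library 2. The intron count minus the exon count of Nanog was 32 and 61 in the controls and between 38 and 120 after IAA.

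Sorted cells asked whether 1 h of IAA, covering mitosis for EG1 cells and G1 for LG1 cells, changes the naive factors. By edgeR, 0 of 10 genes were called in EG1 against 0.0% of 21020 genes, and 0 of 10 in LG1 against 0.0%. DESeq2 called 0 in both. With an absolute log2 fold change over 0.25 and an unadjusted p under 0.05, 0 of 10 passed in EG1 against 1.22% and 0 of 10 in LG1 against 1.02%. Log2 fold changes lay between -0.02 and 0.31 in EG1 and between -0.00 and 0.33 in LG1, with medians of 0.10 and 0.15 beside 0.00 and 0.01 over all genes.

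Nanog had 56.3 and 46.0 CPM in EG1 controls and 56.8 and 52.6 CPM after IAA, and 77.2 and 54.4 CPM in LG1 controls and 78.4 and 68.3 CPM after IAA. The groups overlapped in both phases. Its log2 fold change in LG1 was 0.16 in the exon column (standard error 0.194, adjusted p = 1.00 from edgeR) and 1.04 in the intron column (standard error 0.302, unadjusted p = 0.0104 and adjusted p = 1.00 from edgeR), where the controls had 27 and 20 intron counts and the treated libraries 43 and 48. This pair was chosen after its values were seen, and the exon value was -0.07 without the LG1 control library 2.

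Klf2 had 190.1 and 224 CPM in EG1 controls and 235 and 279 CPM after IAA, without overlap, and 232 and 281 CPM in LG1 controls and 261 and 363 CPM after IAA, with overlap. Tbx3 had 41.9 and 25.6 CPM against 43.3 and 29.1 CPM in EG1, and 50.4 and 31.9 CPM against 58.4 and 41.0 CPM in LG1. Prdm14 had 1.49 and 2.88 CPM against 2.31 and 2.88 CPM in EG1, and 2.79 and 2.95 CPM against 3.30 and 3.90 CPM in LG1, where the groups did not overlap. The difference between the IAA responses of LG1 and EG1 cells was tested for each gene. By edgeR and by DESeq2, 0 of 10 genes were called for the difference against 0.0% by edgeR, and 0 of 10 passed the rule with an unadjusted p against 0.699%, with values between -0.04 and 0.17.

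The log2 fold changes of LG1 against EG1 were above 0 for all members but Sox2, with and without IAA. Zfp42 had 154 and 186 CPM in EG1 controls and 219.7 and 229 CPM in LG1 controls, and 166 and 197 CPM in EG1 and 227 and 258 CPM in LG1 after IAA. Esrrb had 187 and 168 CPM in EG1 controls and 244 and 216 CPM in LG1 controls, and 201 and 173 CPM in EG1 and 254 and 235 CPM in LG1 after IAA. For both genes every LG1 library stood above every EG1 library of the same treatment.

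The log2 fold change of LG1 against EG1 was 0.40 (standard error 0.161) for Zfp42 and 0.38 (standard error 0.149) for Esrrb in controls, with unadjusted p-values of 0.0387 and 0.0365 and adjusted p-values of 1.00 from edgeR. Without the EG1 control library 1, the value of Zfp42 was 0.25. After IAA it was 0.42 (standard error 0.161) for Zfp42 and 0.39 (standard error 0.149) for Esrrb, with unadjusted p-values of 0.032 and 0.0326 and adjusted p-values of 1.00 from edgeR. By edgeR and by DESeq2, 0 of 10 were called in controls against 0.0% of all genes by edgeR, and 2 of 10 passed the rule with an unadjusted p against 1.44%. After IAA, 0 of 10 were called against 0.0% and 2 of 10 passed the other rule against 2.31%.

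The median log2 fold change of the 10 genes was 0.34 in controls and 0.40 after IAA, beside -0.00 and 0.01 over all genes. Klf4 had 47.7 and 35.8 CPM in EG1 controls, 65.1 and 43.9 CPM in LG1 controls, 53.0 and 36.8 CPM in EG1 after IAA and 73.6 and 52.9 CPM in LG1 after IAA. Tfcp2l1 had 186 and 118 CPM in EG1 controls, 238 and 131 CPM in LG1 controls, 178 and 122 CPM in EG1 after IAA and 226 and 142 CPM in LG1 after IAA. Both genes stood higher in library 1 than in library 2 of every condition, and the groups overlapped.

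Pou5f1 had 317 and 447 CPM in EG1 controls, 361 and 508 CPM in LG1 controls, 378 and 455 CPM in EG1 after IAA and 376 and 542 CPM in LG1 after IAA. Sox2 had 269 and 329.5 CPM in EG1 controls, 254 and 320.0 CPM in LG1 controls, 303 and 357 CPM in EG1 after IAA and 285 and 352 CPM in LG1 after IAA. For these 2 genes library 2 was the higher in every condition. Formative and primed markers summed to 509 to 1114 CPM in EG1 controls and 454 to 1030 CPM in LG1 controls, and 0 of 7 had an unadjusted p under 0.05 for LG1 against EG1. Of 6 primitive endoderm markers tested, 2 were lower in LG1 at an unadjusted p under 0.05 in controls and 2 after IAA, with medians of -0.46 and -0.53 on the log2 scale. The 7 genes of that list summed to 18.6 to 21.7 CPM in EG1 controls and 15.4 to 20.7 CPM in LG1 controls, and to 19.5 to 25.6 CPM in EG1 and 15.5 to 19.6 CPM in LG1 after IAA. Of 2 trophectoderm markers tested, 0 had such a p in controls and 1 was lower after IAA. The part of these markers in the values of the members was not tested. The intron columns of LG1 and EG1 hold different kinds of reads and were not compared.

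**Figure D3:**
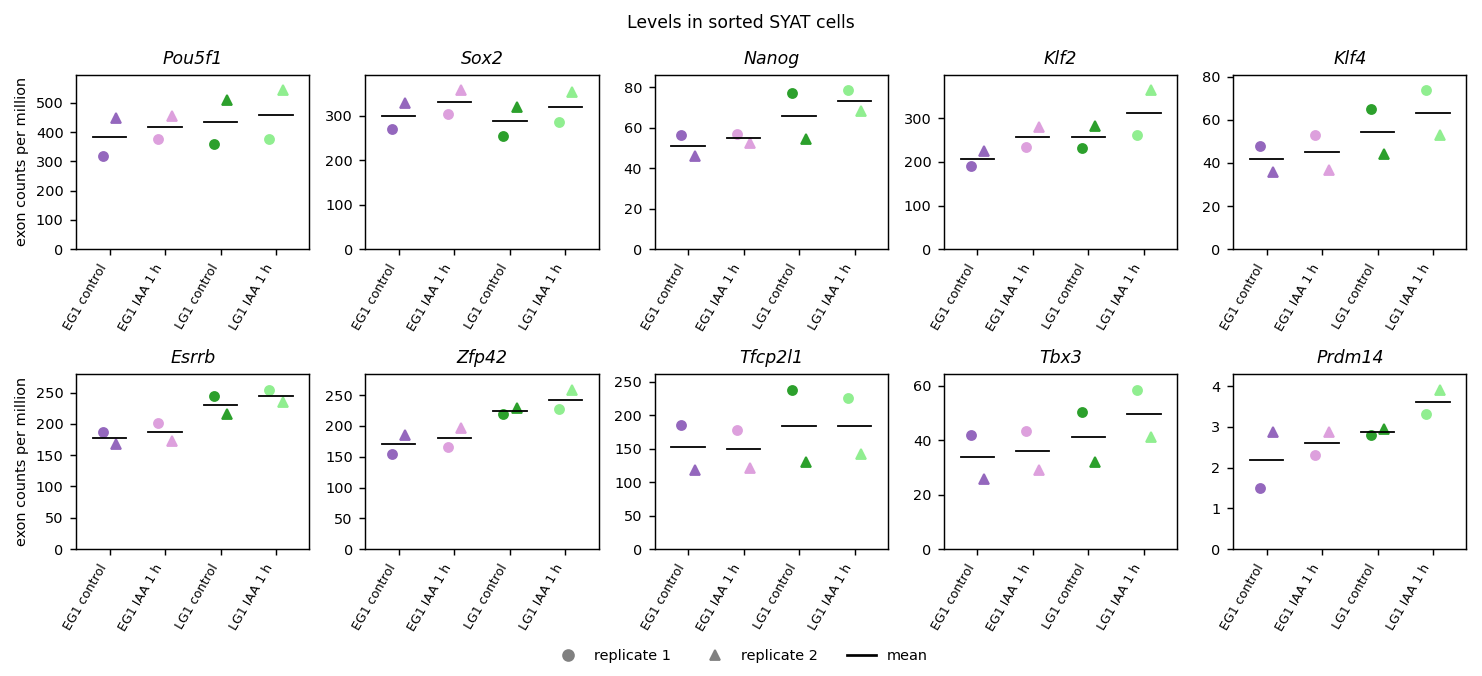
Exon levels in CPM (vertical axis, from 0) of the 10 genes in SYAT cells sorted in early G1 (EG1) or late G1 (LG1), with and without 1 h of IAA (horizontal axis). Circles are replicate 1, triangles replicate 2 and bars the mean; Zfp42 and Esrrb were higher in both LG1 libraries than in both EG1 libraries of the same treatment.

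Cells with wtSRCAP or cdSRCAP asked whether an added wild-type or catalytically dead protein alters the response to IAA. Nanog, given here after its values were seen, had 100.0 and 117 CPM in wtSRCAP controls and 131 and 187 CPM after IAA, and 110.3 and 223 CPM in cdSRCAP controls and 210.0 and 335 CPM after IAA. In wtSRCAP cells the groups did not overlap, and in cdSRCAP cells they did. Its log2 fold changes were 0.55 with wtSRCAP and 0.71 with cdSRCAP (standard error 0.358 each, adjusted p from edgeR 0.778 and 0.917). With 1 library left out, the value with wtSRCAP was 0.29 without the treated library 2, and that with cdSRCAP was 0.29 without control library 1 and 1.32 without control library 2. In the intron column they were 0.65 and -0.05.

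Tbx3 had 18.3 and 9.31 CPM in wtSRCAP controls and 33.6 and 21.3 CPM after IAA. Prdm14 had 11.0 and 6.04 CPM in wtSRCAP controls and 18.5 and 13.8 CPM after IAA. Neither gene overlapped between conditions. The log2 fold changes were 0.99 for Tbx3 (standard error 0.348, unadjusted p = 0.0186 and adjusted p = 0.644 from edgeR) and 0.92 for Prdm14 (standard error 0.335, unadjusted p = 0.0212 and adjusted p = 0.651 from edgeR). Without control library 2 these values were 0.58 and 0.55, and without control library 1 they were 1.54 and 1.41. The intron column gave -0.79 for Tbx3, where controls had 19 and 6 counts and treated libraries 0 and 14, and 1.07 for Prdm14.

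In cdSRCAP cells Tbx3 had 53.5 and 41.1 CPM in the controls and 75.1 and 69.7 CPM after IAA, and Prdm14 had 11.6 and 15.7 CPM in the controls and 20.1 and 21.3 CPM after IAA. Again neither gene overlapped. By edgeR, 0 of 10 genes were called with wtSRCAP against 0.00523% of 19111 genes, and 2 of 10 had an unadjusted p under 0.05, both higher, against 7.4%. With cdSRCAP, 0 were called against 0.0%, and 0 had an unadjusted p under 0.05 against 5.64%. DESeq2 without a replicate term called 0 of the 10 in both, and 36 and 20 of all genes. By edgeR, values lay between 0.12 and 0.99 with wtSRCAP and between 0.00 and 0.71 with cdSRCAP. Their medians were 0.33 and 0.16 beside -0.02 and 0.02 over all genes. With a replicate term, edgeR called 2 of 10 with wtSRCAP and 1 with cdSRCAP, beside 612 and 345 of all genes. DESeq2 with it called 3 and 1, beside 808 and 519. For the difference of both responses, 0 of 10 were called by edgeR and by DESeq2 against 0.0% by edgeR, and 0 had an unadjusted p under 0.05 against 0.785%, with values between -0.37 and 0.16.

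Several marker lists stood higher after IAA beside the members in these cells. Mesendoderm markers (4 genes: T, Eomes, Mixl1 and Gsc) had summed levels of 3.72 to 5.44 CPM in wtSRCAP controls and 7.82 to 13.1 CPM after IAA, and 4.82 to 6.58 CPM in cdSRCAP controls and 10.6 to 10.7 CPM after IAA. Fibroblast markers (6 genes, with Lum and Postn at 0) summed to 5.12 to 5.31 CPM in wtSRCAP controls and 12.1 CPM in both treated libraries, and to 6.48 to 7.36 CPM in cdSRCAP controls and 8.39 to 8.68 CPM after IAA. With wtSRCAP, the median log2 fold change was 1.48 over the 3 fibroblast markers tested, 1.17 over 3 mesendoderm, 1.12 over 3 trophectoderm and 0.61 over 3 neural markers. An unadjusted p under 0.05 was found for 1, 2, 0 and 1 of them, all higher. With cdSRCAP the medians were 0.45, 0.68, 0.41 and 0.45, and 0, 1, 0 and 1 of these had such a p, all higher. Over 4 primitive endoderm markers tested, medians were 0.36 with wtSRCAP and 0.48 with cdSRCAP. Of these 4, 0 had such a p with wtSRCAP, and 1 was lower at such a p with cdSRCAP. Over 7 formative and primed markers, medians were 0.42 and 0.26, and 0 had such a p. The part of these markers in the values of Nanog, Tbx3 and Prdm14 was not tested. In the SYAT time course the 4 mesendoderm markers summed to 9.00 to 12.5 CPM in controls and 13.4 to 23.1 CPM after IAA. In CGR8 cells these 4 summed to 4.09 to 6.57 CPM in controls and 5.62 to 7.40 CPM after IAA.

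Between both constructs, Tbx3 showed the widest gap. It had 18.3 and 9.31 CPM in wtSRCAP controls against 53.5 and 41.1 CPM in cdSRCAP controls, and 33.6 and 21.3 CPM against 75.1 and 69.7 CPM after IAA. The groups did not overlap in either condition. The log2 fold change of cdSRCAP against wtSRCAP was 1.78 in controls (standard error 0.352, a 3.43-fold difference, unadjusted p = 0.0006 and adjusted p = 0.819 from edgeR) and 1.41 after IAA (standard error 0.346, unadjusted p = 0.00257 and adjusted p = 0.951 from edgeR). With DESeq2 the adjusted p in controls was 0.00473, past the threshold. Values without 1 library ranged from 1.36 to 2.33 in controls and from 1.08 to 1.73 after IAA. The intron column gave 0.96 and 1.60, from 0 to 62 counts a library.

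Klf4 had 119 and 75.7 CPM in wtSRCAP controls against 174 and 165 CPM in cdSRCAP controls, and 127 and 84.5 CPM against 181 and 159 CPM after IAA, again without overlap. Its log2 fold changes were 0.80 (standard error 0.277, unadjusted p = 0.0168 and adjusted p = 1.00 from edgeR) and 0.69 (standard error 0.277, unadjusted p = 0.0341 and adjusted p = 0.951 from edgeR). Without wtSRCAP library 2 they were 0.51 in controls and 0.39 after IAA. The intron column gave 1.22 in controls and -0.23 after IAA. Zfp42 had 384 and 504 CPM in wtSRCAP controls against 508 and 765 CPM in cdSRCAP controls, and 489 and 592 CPM against 684 and 885 CPM after IAA. Tfcp2l1 had 265 and 273 CPM against 327 and 422 CPM in controls, and 319 and 284 CPM against 384 and 452 CPM after IAA. Esrrb had 268 and 241 CPM against 306 and 421 CPM in controls, and 325 and 281 CPM against 361 and 446 CPM after IAA. None of these 3 genes overlapped between constructs, nor did Prdm14. Nanog overlapped in controls and not after IAA. How many of all genes did not overlap was not counted.

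Pou5f1, Sox2 and Klf2 also did not overlap between constructs in controls, but did after IAA. Pou5f1 had 686 and 671 CPM in wtSRCAP controls, 761 and 769 CPM in cdSRCAP controls, 1039.8 and 711 CPM with wtSRCAP after IAA and 850.2 and 789 CPM with cdSRCAP after IAA. Sox2 had 387 and 366 CPM, 421 and 425 CPM, 476 and 387 CPM, and 479.9 and 457 CPM in the same order. Klf2 had 155 and 159 CPM in wtSRCAP controls, 184 and 224 CPM in cdSRCAP controls, 233 and 191 CPM with wtSRCAP after IAA and 219 and 238 CPM with cdSRCAP after IAA. The wtSRCAP library 1 after IAA, the highest for Pou5f1, also had the lowest TMM factor of its table (0.838).

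By edgeR, 0 of 10 genes were called between constructs in controls against 0.0% of all genes, where DESeq2 called 1 of the 10, Tbx3, and 23 of 19111 genes, and 2 of 10 had an unadjusted p under 0.05, both higher with cdSRCAP, against 3.82%. After IAA, 0 were called by both tools without a replicate term, against 0.00523% by edgeR. There, 2 had an unadjusted p under 0.05 by edgeR, both higher, against 5.03%. The median over the 10 genes was 0.52 in controls and 0.44 after IAA, beside -0.02 and 0.02 over all genes. With a replicate term, edgeR called 2 of 10 in controls and 4 after IAA, beside 174 and 269 of all genes. DESeq2 with it called 3 and 3, beside 254 and 399. Each construct was carried by 1 clone, so these differences cannot be told apart from differences between clones. Formative and primed markers summed to 595 to 864 CPM in wtSRCAP controls and 509.9 to 542 CPM in cdSRCAP controls, and their part was not tested.

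**Figure D4:**
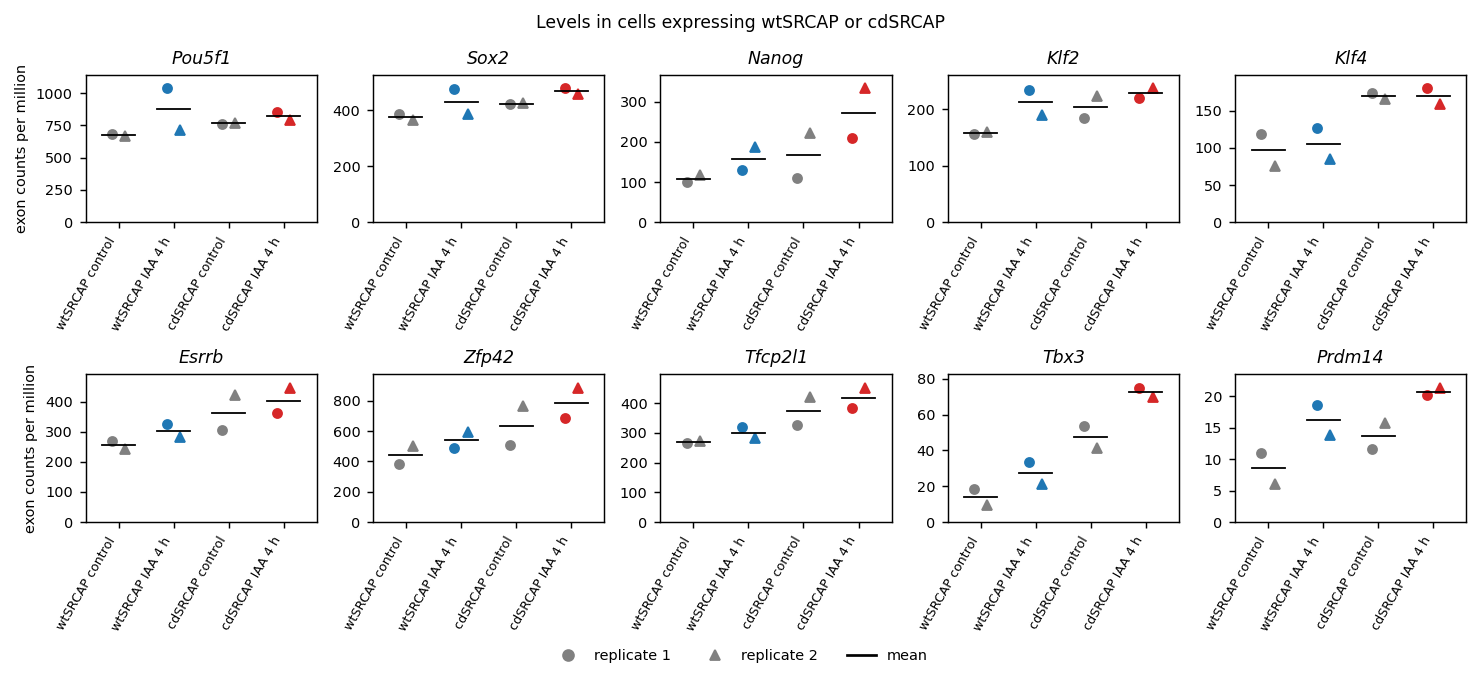
Exon levels in CPM (vertical axis, from 0) of the 10 genes in cells expressing wtSRCAP or cdSRCAP, with and without 4 h of IAA (horizontal axis). Circles are replicate 1, triangles replicate 2 and bars the mean; Tbx3 and Klf4 were higher in both cdSRCAP libraries than in both wtSRCAP libraries of the same treatment.

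Other genes of the pluripotency network were read from a list of 30 genes, among them Klf5, Nr0b1, Dppa3, Sall4, Stat3, Tet1 and Tdgf1. By edgeR, 0 of 30 were called in any comparison. At 6 h in SYAT cells, 8 of 30 had an unadjusted p under 0.05 against 16.1% of all genes, and all 8 were higher, with a median log2 fold change of 0.25 beside 0.01 over all genes. Without the 6 h library 2, 2 of 30 had such a p against 12.3%, and the median was 0.10. DESeq2 called Nr0b1 at 6 h, Dppa2, Tet2 and Tdgf1 in CGR8 cells and Gbx2 for cdSRCAP against wtSRCAP in controls, all higher. At 2, 4 and 8 h, 2, 4 and 2 had such a p against 3.92%, 9.09% and 13.6% of all genes, all higher, with medians of 0.14, 0.21 and 0.20. In CGR8 cells, 6 of 30 had an unadjusted p under 0.05 against 9.16%, all higher after IAA, with a median of 0.09.

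The 5 genes of the list with the lowest p at 6 h were Nr0b1, Tfap2c, Klf5, Tdgf1 and Rarg. Nr0b1, which encodes the OCT4 partner DAX1, had 27.5 and 40.4 CPM in SYAT controls and 46.8 and 102 CPM at 6 h, which is 1.13 on the log2 scale (standard error 0.343, edgeR's adjusted p = 0.166), with 0.10 in CGR8 cells at 4 h. Tfap2c, an AP2 factor of naive cells, had 13.6 and 14.8 CPM in the controls and 19.3 and 21.1 CPM at 6 h (0.51 on the log2 scale), with -0.12 in CGR8 cells. Klf5 had 222 and 233 CPM in the controls and 279 and 334 CPM at 6 h (0.43), with 0.03 in CGR8 cells. Their control and 6 h libraries did not overlap. Tdgf1, the NODAL co-receptor CRIPTO, had 327 and 402 CPM in SYAT controls and 492 and 469 CPM at 6 h (0.40), and 661 and 639.6 CPM in CGR8 controls and 884 and 1009 CPM after IAA, a log2 fold change of 0.54 (unadjusted p = 0.00238 and adjusted p = 0.54 from edgeR). Rarg, a retinoic acid receptor, had 155 and 199 CPM in SYAT controls and 206 and 329 CPM at 6 h (0.59), with 0.22 in CGR8 cells. Without the 6 h library 2, the log2 fold changes at 6 h were 0.46 for Nr0b1, 0.44 for Tfap2c, 0.30 for Klf5, 0.43 for Tdgf1 and 0.22 for Rarg. Differences between SYAT and CGR8 cells in these responses were not tested.

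With wtSRCAP and cdSRCAP, 2 and 1 of the 30 genes had an unadjusted p under 0.05 for IAA against 7.4% and 5.64% of all genes, all higher, with medians of 0.28 and 0.30. In EG1 and LG1, 0 of 30 had one for IAA against 1.22% and 1.02%, with medians of 0.07 and 0.09. For LG1 against EG1 the counts were 0 in controls and 3 after IAA against 1.44% and 2.31%, all higher in LG1, with medians of 0.13 and 0.14. For cdSRCAP against wtSRCAP, 6 were higher and 1 lower in controls, and 5 were higher and 1 lower after IAA, against 3.82% and 5.03% of all genes, with medians of 0.15 and 0.08. For the differences of the IAA responses, 0 of 30 had an unadjusted p under 0.05 between LG1 and EG1 against 0.699%, and 0 of 30 between cdSRCAP and wtSRCAP against 0.785%.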

How the data were processed

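Nuclear RNA-seq counts of 30 libraries were used, from 4 tables. Per the paper's methods and the labels, STAR aligned the reads (mm10) and the authors ran featureCounts, once over GENCODE vM25 exons and once over what exons leave of each gene body. The authors deposited whole-number counts per gene, with an exon and an intron column for each library and no normalization. Tables of the authors' own comparisons (log2 fold changes and p-values from DESeq2) were not used.

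Each table and column was fitted whole by the quasi-likelihood test of edgeR 4.0.16 under R 4.3.3 (TMM scaling, filterByExpr by condition with minimum count 10 and minimum total 15), with Benjamini-Hochberg adjustment over all genes tested. Genes were called at an absolute log2 fold change over 0.5 and an adjusted p under 0.05. In sorted cells, an absolute log2 fold change over 0.25 with an unadjusted p under 0.05 was counted beside it. The fits were tested on simulated data. DESeq2 1.42.0, edgeR with RLE scaling, no filter on low counts, a replicate term and leaving out each library in turn were alternatives. Standard errors are the absolute log2 fold change over the square root of F.

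Symbols and coordinates came from GENCODE vM21 (GRCm38), which matched 55141 of 55401 identifiers, and promoters from RefSeq (GRCm38.p6), with the start nearest to that of GENCODE where a gene had several. Fold changes were printed for members with an unadjusted p under 0.05 in the exon column, and for Nanog and Zfp42 in the time course. The members and lists were chosen with earlier results of these data known. Intervals and p-values cover the spread between 2 replicates. Overlap between groups was read for named genes only. The share of all genes without overlap was not counted, so non-overlap is a description and no test. The same holds for tallies of treated libraries above the control of their number.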

Additional observations from a re-analysis of the deposited data

How the results depend on the processing

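In the main edgeR fits, without a replicate term, the 10 genes had 0 calls in each of the 15 comparisons. Counts of calls under other settings differed as follows. In CGR8 cells 1 gene (Nanog) was called by DESeq2, without the filter on low counts, with a replicate block, and by DESeq2 with a replicate block, and 0 to 3 were called with 1 library left out (Nanog, Tbx3 and Prdm14 without control library 2). In SYAT cells DESeq2 with a replicate block called 1 gene at 2 h (Tbx3), 4 h, 6 h and 8 h (Nanog), edgeR with a replicate block or without the filter called 1 (Nanog) at 6 h and at 8 h, and 0 to 2 were called at 6 h with 1 library left out (Pou5f1 and Klf2 without the 6 h library 1). With wtSRCAP the replicate block gave 2 calls (Tbx3 and Prdm14) and DESeq2 with it 3 (Nanog as well). With cdSRCAP both gave 1 (Nanog). Between constructs in controls, DESeq2 and the fit without the filter gave 1 (Tbx3), the replicate block 2 (Klf4 and Tbx3) and DESeq2 with it 3 (Zfp42 as well). After IAA they were 1 without the filter (Tbx3), 4 with the replicate block (Klf4, Nanog, Tbx3 and Zfp42) and 3 with DESeq2 and the block. Over all genes, edgeR with a replicate block called 500 in CGR8 cells, 0, 76, 823 and 634 at 2, 4, 6 and 8 h in SYAT cells, 612 with wtSRCAP, 345 with cdSRCAP, and 174 and 269 between constructs in controls and after IAA, and DESeq2 with it called 411, then 42, 349, 1212 and 753, then 808, 519, 254 and 399, where edgeR without the block called 0 to 13. The cause was not tested. In sorted cells every setting gave 0 calls, but counts at an unadjusted p under 0.05 moved. With a replicate block, edgeR gave 8 of 10 such genes for LG1 against EG1 in controls and 7 after IAA. Without it there were 2 and 2. Over all 21020 genes the block gave 2497 and 3118. For IAA it gave 2 of 10 in EG1 and 4 in LG1, beside 1741 and 1419 of all genes.

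The labels give no shared culture or day for a replicate number, and each contrast has 2 pairs. Deviations of same-numbered libraries from their group means correlated at 0.0736 in CGR8 cells. In the time course they correlated at 0.267 to 0.589 without 6 h and at -0.0359 to 0.0623 with it. The values were 0.372 to 0.586 in sorted cells and 0.259 to 0.376 with the constructs. The numbers were thus not taken to pair all libraries. In sorted cells and with the constructs every such correlation was above 0, and the main fits leave this shared deviation out there as well. The replicate block gave Nanog an adjusted p of 0.00493 in CGR8 cells and 0.285, 0.0547, 0.0336 and 0.0288 at 2, 4, 6 and 8 h in SYAT cells.

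Of the printed fold changes, 217 of 250 values under another tool, scaling, filter or block kept direction and side of the threshold, 32 newly passed it and 1 reversed. With 1 library left out, 390 of 420 kept both, 6 newly passed it and 24 reversed. Reversals had these ranges with 1 library left out. Zfp42 in SYAT exons ranged from -0.30 to 0.70 at 2 h, -0.27 to 0.76 at 4 h, -0.13 to 0.78 at 6 h and -0.21 to 0.70 at 8 h, and in introns from -0.24 to 0.68, -0.23 to 0.72, -0.11 to 0.73 and -0.15 to 0.69. Pou5f1 introns at 6 h ranged from -0.049 to 1.07. Nanog ranged from -0.088 to 0.61 in CGR8 introns, from -0.073 to 0.43 in LG1 exons and from -0.19 to 0.17 in cdSRCAP introns, where DESeq2 with a replicate block gave 0.027. Tbx3 introns ranged from -6.76 to 0.34 with wtSRCAP and from -5.89 to 7.58 between constructs after IAA, where Klf4 introns ranged from -0.86 to 0.76. With 2 libraries a group, a lone library was assumed to vary like the other groups.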
